A study of Brassica juncea with 9 samples.

Results

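The comparison described here set leaves of *Brassica juncea* (Indian mustard) grown in 50 mM NaCl against leaves of unstressed plants. Its members were chosen by sample title: 3 NaCl plants and 3 control plants, or 6 of the 9 samples of the series. All plants were of genotype NDR8501, were 5 weeks old at harvest, and grew in aerated hydroponic solution in one glasshouse experiment. The NaCl plants received the salt in split doses from the seedling stage and stayed in it for 4 weeks. The control plants spent the same time in the slightly acidic nutrient solution without added salt. A further 3 plants received 50 mM NaCl with 2.5 mM bicarbonate (HCO3-), and they serve here only as a further reading for the transcripts that NaCl changed. Each array held RNA from a middle, fully expanded leaf of a single plant, so the results describe one genotype, one leaf position and one time point.

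Indian mustard is an oilseed crop that carries the A and B genomes of *Brassica* and is regarded as fairly salt tolerant among crops. In salt-grown plants in general, sodium and chloride reach the leaf through the xylem. Leaves cope by excluding sodium through plasma membrane antiporters, storing it in the vacuole through tonoplast antiporters, building up compatible solutes such as proline, and inducing genes that respond to the hormone abscisic acid. The files pair the probes with sequence identifiers but with no gene names, and no annotation was used here. Probes are therefore named by their array identifiers, no gene list or leaf marker could be read, and the roles of the transcripts are not given. Array probe sequences were not used here.

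Of 43603 probes, between 16797 (NaCl replicate 1) and 22063 (NaCl replicate 2) were well above background on these 6 arrays, by the scanner software's own criterion. The 75th percentile of the processed intensity differed between arrays, from 417 in NaCl replicate 2 to 1751 in NaCl replicate 3. The net signal of the negative control spots ran from 225 to 1901 on the same arrays. Levels below are log2 processed intensities minus the array's own 75th percentile, called the scaled log2 signal, so that a value of 0 lies at that percentile. Testing was limited to the 17798 probes that all 3 arrays of some group (NaCl, control or bicarbonate) detected well above background. A bulk leaf sample cannot tell apart fewer cells of a type and less RNA per cell.

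NaCl plants differed from control plants in few transcripts that could be told from plant-to-plant variation. At an adjusted p under 0.05 (limma, Benjamini-Hochberg over all tested probes), 2 probes were higher in NaCl plants, or 0.0112% of those tested, and 4 probes were lower, or 0.0225%. Among the lower ones were 2 probes of the same transcript. Most other transcripts moved little: the median absolute log2 change was 0.20, a 1.15-fold difference. The middle 50% of fitted log2 changes lay between −0.23 and 0.16, and the outer 1% on either side began at −1.55 and at 1.49.

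**Figure D1:**
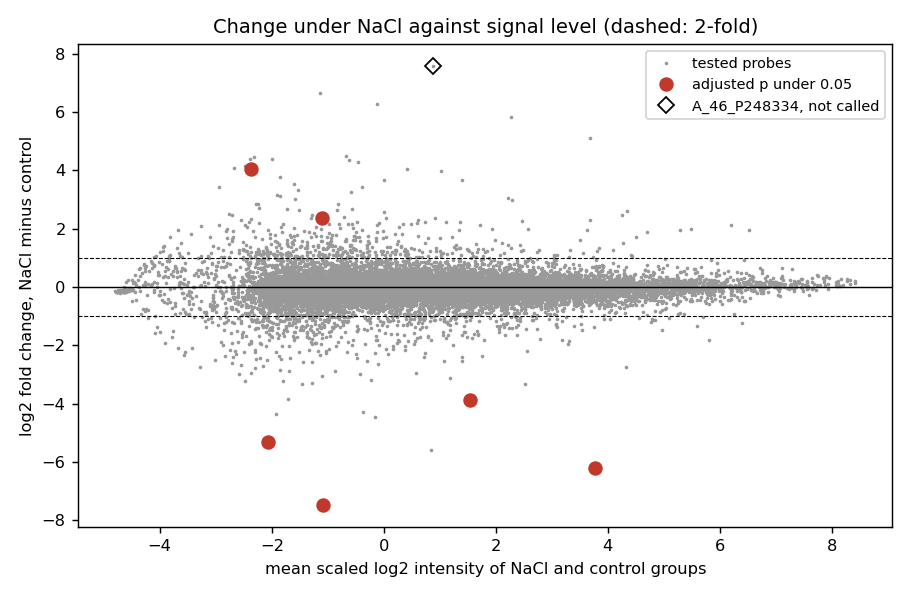
Each point is 1 of 17798 tested probes, with the mean scaled log2 intensity of the NaCl and control groups on the horizontal axis and the fitted log2 fold change, NaCl minus control, on the vertical axis. The 6 called probes are the large circles, 2 above and 4 below the line of no change. The open diamond is A_46_P248334, the largest positive fitted change, which was not called. Points widen towards low signal.

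The lower probes included 2 that measure one transcript. A_46_P144744 had scaled log2 signals of 0.67, 1.40 and −0.03 in NaCl plants, against 6.85, 7.45 and 6.31 in control plants. Its log2 fold change was −6.19 (SE 0.69, n = 3 per group, limma adjusted p = 0.0411), and the highest NaCl plant lay 4.91 below the lowest control plant. All 6 arrays were well above background, so both ends of this change were measured. The falls within the 3 slides were nearly alike, at −6.17, −6.05 and −6.34.

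The other tested probe of that transcript, A_46_P231729, was well above background in no NaCl plant, with signals of −4.34, −5.47 and −4.63, against 2.05, 3.77 and 2.14 in control plants. Against the lowest signal detected on each array, it was at least 40.1-fold lower in NaCl plants, with measured means of −4.81 ± 0.59 in NaCl and 2.66 ± 0.97 in control plants (SD, n = 3 each, limma adjusted p = 0.00283). The bound is used for every probe that no array of a group detected. It sets the brighter group's mean against the dimmer group's mean after each of its arrays was raised, where needed, to the lowest signal that any detected probe had there. It holds for that choice of floor only: with the same floor of −2.06 on all arrays, the highest of those lowest signals, the log2 fold change of A_46_P231729 was −4.71 (limma adjusted p = 0.00499). The array's remaining probe for the same transcript, A_46_P002236, was too dim to be tested, with 1 NaCl and 1 control array above background, and its signals of −3.09 to −2.08 in NaCl plants overlapped the −2.84 to −2.22 of control plants. Since 2 of the 4 lower probes share a transcript, the 4 stand for 3 transcripts.

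A_46_P153170 also fell, to near the 75th percentile of the array in NaCl plants. It had −0.84, 0.06 and −0.41 in NaCl plants, against 3.56, 4.18 and 2.73 in control plants, and all 6 arrays were above background. The log2 fold change was −3.88 (SE 0.43, n = 3 per group, limma adjusted p = 0.0411), a 14.8-fold lower signal. Every NaCl plant lay at least 2.67 below every control plant.

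The remaining lower probe, A_46_P239649, lost detection altogether. Its signals were −4.22, −5.34 and −4.64 in NaCl plants, none above background, against −0.09, 1.89 and −0.03 in control plants, all above background. Against each array's lowest detected signal it was at least 9.59-fold lower in NaCl plants (measured means −4.73 ± 0.57 in NaCl and 0.59 ± 1.13 in control plants, SD, n = 3 each, limma adjusted p = 0.0411). The common floor gave a log2 fold change of −2.65 that was not called (limma adjusted p = 0.156). Control replicate 2 was the brightest control plant for all 4 lower probes.

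Of the 2 higher probes, A_46_P116804 gained detection. It had −0.33, −0.29 and −0.46 in NaCl plants, a spread of only 0.09 (SD), and none of the control plants, at −4.31, −5.04 and −3.85, was above background. Against each array's lowest detected signal it was at least 4.12-fold higher in NaCl plants (measured means −0.36 ± 0.09 in NaCl and −4.40 ± 0.60 in control plants, SD, n = 3 each, limma adjusted p = 0.0133). With the common floor its log2 fold change was 1.70 (limma adjusted p = 0.00499).

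A_46_P160344 had 0.32, −0.26 and 0.22 in NaCl plants, against −2.73, −2.42 and −1.72 in control plants, of which replicates 2 and 3 were above background. The groups were apart by 1.46, and the fitted log2 fold change was 2.38 (SE 0.28, n = 3 per group, limma adjusted p = 0.0479). The signal was 5.21-fold higher, and this rests in part on a control signal at background.

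**Figure D2:**
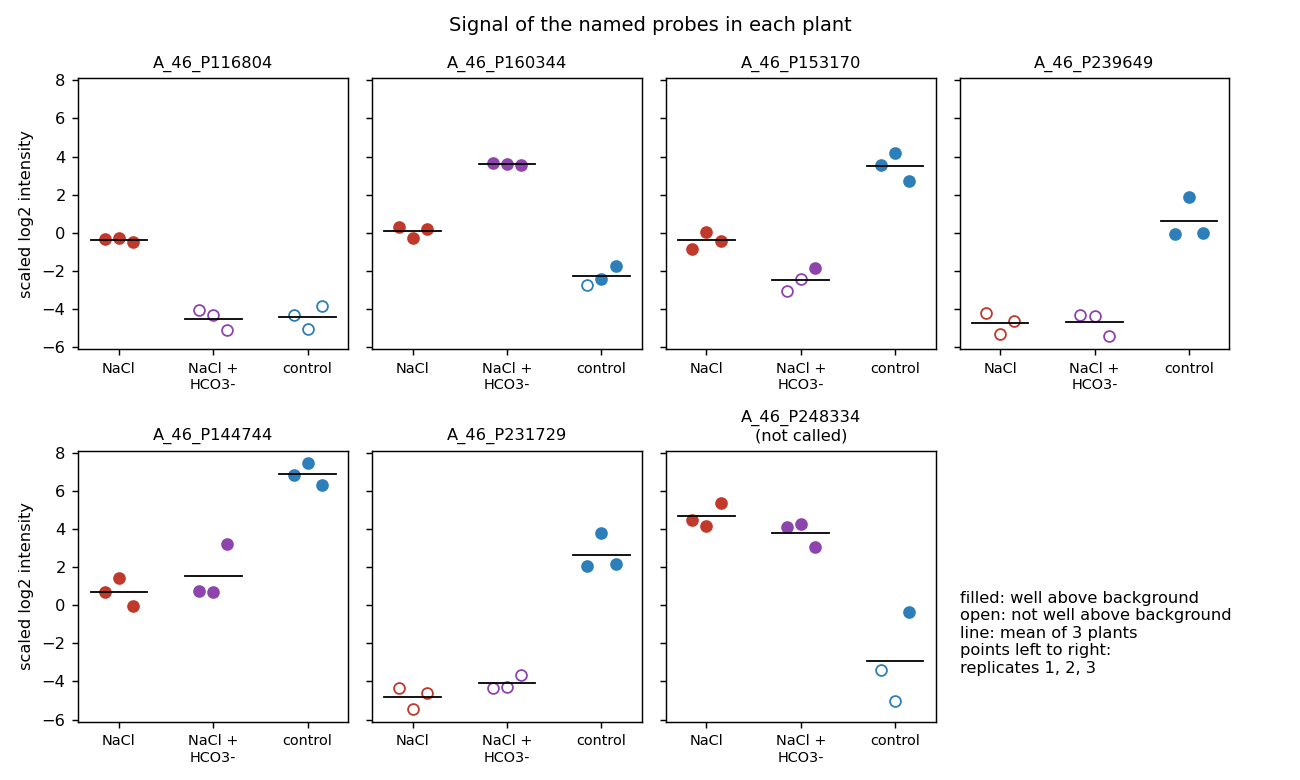
Scaled log2 intensity of the 6 called probes and of A_46_P248334 in each plant, with NaCl, NaCl with bicarbonate and control from left to right; filled points were well above background, open points were not, and lines mark the mean of 3 plants. In each panel the NaCl points lie wholly above or wholly below the control points.

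Background correction by another method, which also added an offset of 50 to the intensities, gave smaller changes for all 6 called probes. Which group's signal moved was not tested. With normexp correction of the median spot signals, the log2 fold change was 1.37 for A_46_P116804 (limma adjusted p = 0.253), 1.01 for A_46_P160344 (limma adjusted p = 0.157), −3.03 for A_46_P239649 (limma adjusted p = 0.124) and −4.38 for A_46_P231729 (limma adjusted p = 0.0245). The changes of A_46_P144744 and A_46_P153170, the 2 lower probes measured on all 6 arrays, were −5.78 and −3.18 with it, and both were called.

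The slides carried 1 array of each group, so the difference could be read within each slide. All 6 called probes had the same direction on all 3 slides, which groups that do not overlap already imply. For A_46_P153170 the falls were −4.40, −4.12 and −3.14 on slides 1 to 3, and for A_46_P160344 the rises were 3.05, 2.16 and 1.94. A_46_P116804 differed by 3.98, 4.75 and 3.39. The largest within-slide differences of A_46_P231729 and A_46_P239649, −9.24 and −7.23, came from slide 2, which holds the NaCl array with the lowest overall intensity and the control plant with the highest signal for these probes. With the slide as a fixed term in limma, 0 probes were called, with the adjusted p of the 6 probes between 0.0592 and 0.321. In that fit 1060 of 17798 probes had an unadjusted p under 0.05. That threshold passes a share of about 0.05 even where nothing differs, so the 1060 are not read as changed probes. With the slide as a random block the counts were 2 higher and 4 lower.

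**Figure D3:**
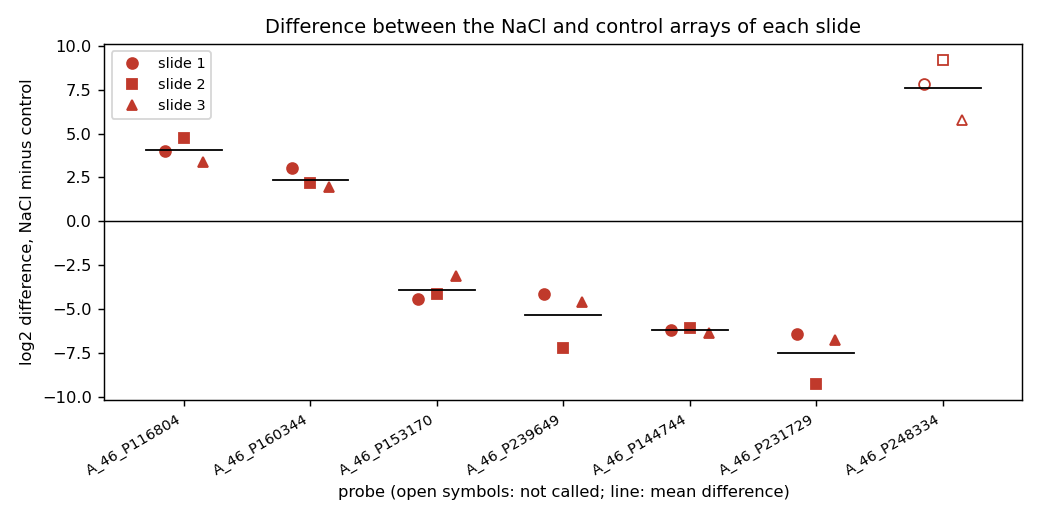
Difference in scaled log2 intensity between the NaCl and the control array of the same slide, for the 6 called probes (filled) and A_46_P248334 (open); circles, squares and triangles are slides 1, 2 and 3, and lines mark the mean difference. The 3 slides of A_46_P144744 nearly coincide, while those of A_46_P231729, A_46_P239649 and A_46_P248334 lie furthest apart.

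The number of called probes changed when single arrays were left out. Each of these fits also had fewer arrays and its own set of tested probes, and the part of each was not tested. The count of higher probes was 0 without NaCl replicate 1 or control replicate 1 and 9 without control replicate 3. The count of lower probes was 15 without NaCl replicate 2, 1 without NaCl replicate 1, control replicate 1 or bicarbonate replicate 1, and 2 without bicarbonate replicate 2 or 3. The bicarbonate plants enter through the estimate of the spread, which all 9 arrays share, and through the detection filter. Only A_46_P231729 stayed past the threshold in each of the 9 fits that left out 1 array. Its smallest change there was −6.91, without control replicate 2.

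Of the 6 called probes, 3 differed between plants that received bicarbonate with the same NaCl and plants with NaCl alone. A_46_P116804 was not above background in any of them, at −4.08, −4.34 and −5.10, and was lower there than in NaCl plants, by at least 4.94-fold against each array's lowest detected signal (limma adjusted p = 0.000391; log2 fold change −1.70 with the common floor). A_46_P160344 was brighter still, at 3.64, 3.59 and 3.54, and above NaCl plants (log2 fold change 3.50, SE 0.28, limma adjusted p = 0.000306). A_46_P153170 was dimmer still, at −3.05, −2.45 and −1.87 with 1 array above background, and its log2 fold change against NaCl plants was −2.06 (limma adjusted p = 0.0163). A_46_P144744 had 0.74, 0.72 and 3.22, and A_46_P231729 and A_46_P239649 were above background in none of these plants. For A_46_P144744 the difference from NaCl plants did not pass the test (log2 fold change 0.88, limma adjusted p = 0.427), nor did it for the other 2 probes, which neither group detected. Both salt treatments are read against the same 3 control plants, so low values of a probe in both are not independent results. For scale, 2708 probes, 15.2% of those tested, were called between bicarbonate and NaCl plants. The 6 probes were called on the same NaCl arrays and with the same estimate of the spread. That choice can raise the share of them that differed, so it cannot be compared with the 15.2%.

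The largest positive fitted change was not called. A_46_P248334, singled out after its values were seen, had 4.45, 4.18 and 5.38 in NaCl plants, all above background. In control plants it had −3.37, −5.00 and −0.37, and only replicate 3 was above background. The log2 fold change was 7.59 (SE 1.00, n = 3 per group), with a limma adjusted p of 0.0812. The groups were 4.55 apart, but the control plants spread over a wider range (SD 2.35) than those of any called probe. With normexp the log2 fold change was 4.83 (limma adjusted p = 0.00721), and with the common floor 6.16 (limma adjusted p = 0.00499). Without control replicate 3 the log2 fold change was 8.86 and the limma adjusted p 0.0101. With the authors' value table it was 7.47, with a limma adjusted p of 0.0481. These are settings that passed the threshold: of 24 alternatives 7 passed it and 17 missed it. The limma adjusted p was 0.230 with the 6 NaCl and control arrays alone and 0.333 with the slide as a fixed term. Without control replicate 1 it was 0.301. Bicarbonate plants had 4.10, 4.25 and 3.07, close to the NaCl plants.

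The 20 probes next in rank after the 6 called ones had limma adjusted p-values between 0.0672 and 0.221, and 8 of them were higher and 12 lower in NaCl plants. Their absolute log2 changes ran from 1.06 to 7.59 with a median of 2.31, and 8 of the 20 were above background on all 6 arrays. The first of them had closely grouped plants, with signals of 0.51, 0.63 and 0.60 in NaCl plants, against −0.62, −0.82 and −0.55 in control plants, a log2 fold change of 1.24 (SE 0.15). It did not pass the test.

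Large fitted changes were more numerous than calls. A fitted change of at least 2-fold was found for 452 higher and 470 lower probes, 5.18% of those tested, and one of at least 4-fold for 85 higher and 83 lower probes. Most of these rest on dim signals: among the 15306 probes above background on all 6 arrays 2.14% had a fitted change of 2-fold or more, and among the other 2492 tested probes 23.9%. Of the 85 probes at least 4-fold higher, 43 had groups that did not overlap and 15 were above background on all 6 arrays. Of the 83 at least 4-fold lower, 51 had groups that did not overlap and 10 were above background on all 6 arrays. Choosing probes by the size of the change favours groups that do not overlap, so these counts lend the changes no further weight. Over the whole tested set, groups without overlap were found for 10.2% of probes, 717 with NaCl above control and 1103 with NaCl below. With so few plants per group, a share of about this size is found even where nothing differs. The 717 and 1103 are therefore not read as changed probes.

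Among these large changes the group with the lower signal was the more variable one. The median SD of the probes at least 4-fold higher was 0.65 in NaCl plants and 1.82 in control plants, and that of the probes at least 4-fold lower was 1.31 in NaCl plants and 0.54 in control plants. Only 15 of the 85 higher and 10 of the 83 lower probes were above background on all 6 arrays. The part of signals at background in these SDs was not tested. In 22 of the 85 higher and 16 of the 83 lower probes, leaving out 1 plant brought the change under 2-fold in that direction. For the higher probes the plant was most often control replicate 2, with 11 probes, followed by NaCl replicate 3, with 6. For the lower probes it was most often NaCl replicate 2, with 6 probes, followed by NaCl replicate 3, with 5.

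Most transcripts with several probes had changes of one sign. In 1192 transcripts with at least 2 tested probes, all probes had the same sign of change in 950, or 79.7%. In 90 of them at least 1 probe had an unadjusted p under 0.05, and in 87 of those 90 the signs matched throughout. In 25 transcripts every tested probe had an unadjusted p under 0.05 in the same direction, 8 higher and 17 lower, and in 0 transcripts did this happen in opposite directions. Such probes read the same RNA on the same arrays, so they are not independent measurements of the plants. Their signs can match where NaCl changed nothing, so these counts are not read as changed transcripts. One of the 25 transcripts, whose matching signs follow from the choice, had log2 fold changes of −2.53 and −3.19 at its 2 probes (limma adjusted p = 0.127 for both). Another of the 25 had −1.47 and −1.53, with limma adjusted p-values of 0.271 and 0.237. None of these 4 probes was called.

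The detected transcripts were mostly the same in both groups. All 6 arrays detected 15306 probes, 20445 were detected on none of them, and 87.5% of all probes were detected on the same number of arrays in both groups. Only 20 probes were detected in all 3 NaCl plants and no control plant, and 13 in all 3 control plants and no NaCl plant. For the 20, the bound on the log2 difference ran from 0.48 to 4.58 with a median of 1.06, and 1 of them was called. For the 13 it ran from 0.77 to 5.32 with a median of 1.45, and 2 of them were called. Both sets were chosen by detection in 1 group only, so the direction of these differences is fixed by the choice. Over all tested probes 0.0337% were called. The choice also favours calls, so the calls in the 2 sets cannot be compared with that share. The called ones, A_46_P116804, A_46_P231729 and A_46_P239649, passed the detection filter only through the group where they were bright. Of the 20 NaCl-only probes, 4 were detected in all 3 bicarbonate plants and 4 in none. Of the 13 control-only probes, 4 were detected in all 3 bicarbonate plants and 3 in none. More probes were detected on more NaCl than control arrays (3422) than the other way round (2046), and the array with the most detected probes and the lowest negative control signal was a NaCl array, replicate 2. The part of that array in the difference was not tested.

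As whole profiles, NaCl and control plants lay no further apart than control plants did from each other. Over the tested probes the median absolute log2 difference was between 0.29 and 0.38 for the 9 pairs of a NaCl and a control plant. It was between 0.28 and 0.33 for the 3 pairs of NaCl plants and between 0.34 and 0.44 for the 3 pairs of control plants. The widest control pair was replicates 2 and 3, and the closest NaCl and control pair was replicate 1 of each. Bicarbonate plants stood further from controls, at 0.40 to 0.58. Over tested probes the SD within a group had a median of 0.26 in NaCl plants and 0.32 in control plants, and it was smaller in NaCl plants for 58.4% of probes. Spots of the same probe on one array agreed more closely than plants did: in 16 probes with 5 spots each, detected on all 6 arrays, the median SD between spots was 0.12 and that between plants of a group 0.26. Each plant had its own array, so the SD between plants also holds differences between arrays. The part of each cannot be told apart.

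**Figure D4:**
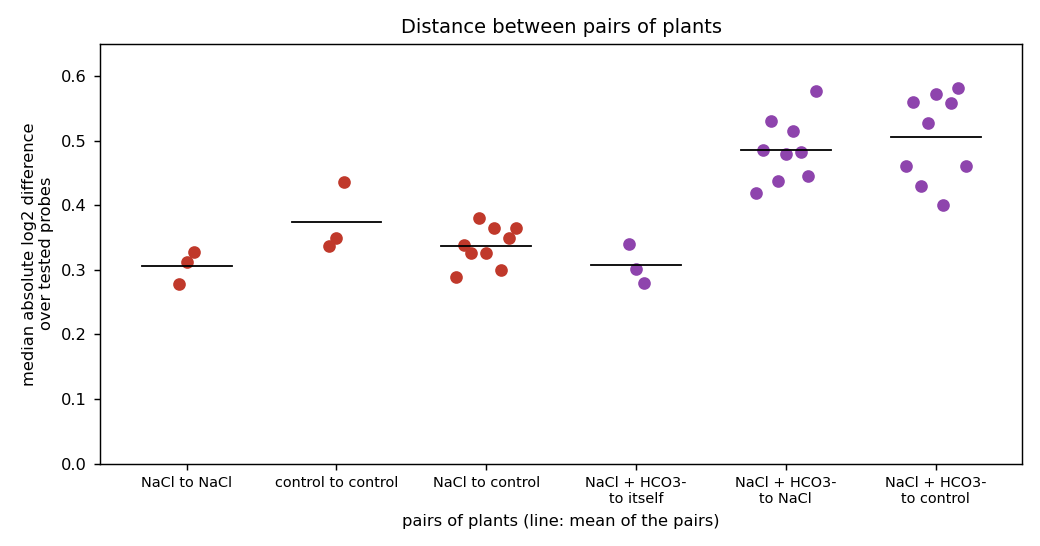
Each point is a pair of plants and gives the median absolute difference in scaled log2 intensity over the tested probes; lines mark the mean of the pairs. The 9 pairs of NaCl and control plants lie at 0.29 to 0.38 and overlap the pairs within the NaCl and control groups, and the pairs of bicarbonate and control plants lie at 0.40 to 0.58.

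The width of the intervals shows what these 6 plants could exclude. The 95% confidence interval of a log2 fold change had a median half-width of 0.61, a factor of 1.52. The interval lay within 2-fold on either side of no change for 11301 probes, 63.5% of those tested, and within 4-fold for 90.8%. In a fit to the 6 NaCl and control arrays alone it lay within 2-fold for 62.4%. These intervals hold for 1 probe at a time. For each of the remaining probes a change of 2-fold was not excluded in at least 1 direction at this number of plants.

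Precision followed signal level. The tested probes were divided into 5 classes of equal size by mean signal. In the dimmest class the median absolute log2 change was 0.27, and the interval lay within 2-fold for 40.4%. In the brightest class these were 0.17 and 77.4%. Fitted changes of 2-fold or more made up 12.1% of the dimmest class and 2.08% of the brightest. Of the 6 called probes, 4 lay in the dimmest class by their mean over both groups, which follows from a signal near background in one of the groups.

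The 100 tested probes with the highest mean signal over the 6 plants had fitted log2 changes from −0.31 to 0.67, with a median of 0.10, and 0 reached 2-fold. In limma 0 of the 100 had an unadjusted p under 0.05, and the smallest adjusted p was 0.936. For 86 of the 100 the 95% interval lay within 2-fold. The choice by the mean over both groups leaves out bright probes that differ strongly between them, so these values describe only the probes that stayed bright in both.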

How the data were processed

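Leaf RNA of 9 single plants was hybridised to 9 one-colour Cy3 arrays, with groups and replicate numbers taken from the titles. The deposited scanner files hold intensity on a linear scale, from which Agilent Feature Extraction 10.1.1.1 had subtracted background and spatial trends, per the file headers (version 10.5.1.1 per the submitters' processing notes). The deposited table of log2 values states no method; it matched quantile-normalised log2 intensities of the same arrays to within 0.0891 (column medians 6.26 to 6.27), so its scale and lack of centring are inferred. Scan dates in the headers precede the growing period in the labels.

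The 1417 control spots were left out, 71 outlier spot values were set to missing, no gene spot was saturated, and repeated spots were averaged on the log2 scale. Each array's 75th percentile was subtracted. Group means were fitted to all 9 arrays with limma 3.58.1 in R 4.3.3 and eBayes, two-sided, with no covariate. The fit was tested on simulated data. Figures used matplotlib 3.10.9.

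The comparison, the naming rule and the alternatives were chosen with earlier results of these data known. The rule named the 2 largest called rises and falls detected in both groups; A_46_P116804, A_46_P231729, A_46_P239649 and A_46_P248334 were named outside it, after their values were seen, as was A_46_P002236. The planned normexp correction used median spot signals. Same-numbered NaCl and control arrays share a slide and scan; the titles say nothing of shared growth. The number of arrays limits the precision.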

Additional observations from a re-analysis of the deposited data

How the results depend on the processing

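The 2 higher and 4 lower probes depended on most settings. Where the probes, arrays and threshold stayed the same, the cause was not tested. Higher and lower probes numbered 5 and 8 with quantile normalisation or the authors' value table, 24 and 39 with scaling to the array median, 5 and 9 with a common floor, 167 and 249 at an unadjusted p under 0.05 with at least 2-fold, and 1 and 1 with the percentile of probes detected on all arrays, with no filter on dim probes, or with probes detected on 3 of the 6 arrays. Probes detected on all 9 arrays gave 0 higher and 1 lower. Of these 14468 probes, 851 had an unadjusted p under 0.05 in limma, a threshold that also passes unchanged probes. The 6 arrays alone gave 5 higher and averaging per transcript identifier 1 higher. Outlier spots kept, a mean-variance trend, normexp and the slide as a random block (correlation 0.0371) left both counts within 1.5 times. With normexp the probes were not the same. A_46_P116804, A_46_P160344 and A_46_P239649 lost their call, so its 2 higher probes were other ones, among them A_46_P248334. Leaving out each array gave 0 to 9 higher and 1 to 15 lower, with the filter applied to the arrays left.

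The replicate block, which is also the slide, gave 0 higher and 0 lower in limma. Deviations of same-numbered NaCl and control arrays correlated at −0.00378, 0.0751 and −0.144, so the numbers were not taken to pair the plants.

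None of the 7 probes followed through the alternatives changed direction. The threshold was missed in 1 of 24 alternatives by A_46_P231729 and in 4 of 24 by A_46_P116804. It was missed in 11 of 25 by A_46_P144744, in 12 of 24 by A_46_P153170, and in 14 of 24 each by A_46_P160344 and A_46_P239649. A_46_P248334 passed it in 7 of 24. Median scaling moved the median log2 change of all tested probes to −0.12, against −0.04, and left no probe with its interval within 2-fold; on most arrays the median lies among probes that were not detected. Detection counts depend on each array's background and were not followed through the alternatives.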
